A study of Homo sapiens with 12 samples.

Results

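Matrix metalloproteinases (the MMP genes), the ADAMTS proteases, the tissue inhibitors of metalloproteinases (the TIMP genes) and the inhibitors RECK and TFPI2 were followed through cardiac differentiation under 2 fluorinated sulfonates. A member is any gene with the symbol MMP or ADAMTS and a number, TIMP1 to TIMP4, RECK or TFPI2. The rule found 47 of 20042 listed genes, namely 22 MMP genes, 19 ADAMTS genes, 4 TIMP genes and 2 other inhibitors. The cells were H9, an established line of human embryonic stem cells, so every group is 1 line guided toward cardiomyocytes in culture. RNA was sequenced in 12 libraries, a pair for each of 6 groups: the vehicle DMSO, 60 µM F-53B and 60 µM PFOS, each collected at day 8 and at day 12, with the compound present from day 0 onward. In structure, the first is a sulfonate with a fluorinated ether chain that ends in chlorine, while the chain of PFOS is fully fluorinated with neither an ether oxygen nor chlorine. The stated question of the series is whether these compounds turn cardiac differentiation toward epicardial cells. The labels number the replicates without naming separate cultures. The p-values therefore reflect only how far these libraries lie apart, which may be technical.

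As background, MMPs and ADAMTS proteins are zinc-dependent enzymes that cut collagens, proteoglycans and basement membrane, and many are secreted as inactive precursors. Membrane-type MMPs sit at the cell surface, where MMP14 activates the precursor of MMP2 in a complex that also needs TIMP2. TIMPs block the active sites of these enzymes, TIMP3 being the one that binds to the matrix and also inhibits ADAM and ADAMTS proteases. In the heart, epicardial cells that become fibroblasts and smooth muscle move into a matrix rich in collagen and versican, which these enzymes cut.

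Levels are in FPKM, fragments scaled to gene length and to the library's mapped fragments. Changes are differences in log2(FPKM + 1) with the standard error (SE) of a limma fit to all 12 libraries. Benjamini-Hochberg adjustment ran over the 14080 genes that reached 1 FPKM in 2 or more libraries, the tests were two-sided, and a gene was called at an adjusted p under 0.05. Folds divide the mean FPKM of one group by that of the other, and a fold exceeds the log2 change for genes near 0. Of the 47 members, 30 passed this filter: 9 MMP genes, 16 ADAMTS genes, TIMP1, TIMP2, TIMP3, RECK and TFPI2. The filter looks at levels in any group, so counts over these 30 describe the genes that passed it and not the whole family.

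The members near the detection floor were many. Under 1 FPKM in all 12 libraries were MMP1, MMP3, MMP7, MMP8, MMP10, MMP12, MMP13, MMP17, MMP21, MMP26, ADAMTS16, ADAMTS17, ADAMTS20 and TIMP4. The highest value among the MMP genes of this group was 0.51 FPKM, for MMP17, and TIMP4 ran from 0.04 to 0.24 FPKM. ADAMTS17 came closest to the filter with 0.92 and 0.91 FPKM in the day 12 F-53B libraries, and ADAMTS20 reached 0.99 in a single library. MMP28 also failed it, with 1.06 FPKM in 1 day 12 F-53B library and 0.66 or less in the other 11 libraries. MMP20 and MMP27 held no value in any library. The collagenases MMP1, MMP8 and MMP13, the stromelysins MMP3 and MMP10 and the macrophage elastase MMP12 are all on the list of genes under 1 FPKM.

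The files give no read counts, so depth is unknown. FPKM totals ran from 389249 to 439918 per library, of which the members held 0.122% to 0.191%. The day 12 F-53B replicates stood furthest apart. Between them 134 tested genes differed by more than 1 in log2(FPKM + 1), against 10 to 39 in the other groups. Summed over 8 markers, cardiomyocyte FPKM in the 2 libraries of a group ran at 5181 to 6942 with DMSO, 1091 to 1148 with F-53B and 3046 to 4638 with PFOS at day 8. At day 12 the same sums were 9606 to 9658, 1016 to 2335 and 7974 to 8726. These sums for the labelled cell type were lowest with F-53B at both days. MYL7 made up most of the F-53B sums, at 978 and 935 FPKM at day 8 and 1451 and 651 at day 12. With F-53B at day 8, MYH7 was 0.16 and 0.08 FPKM and NKX2-5 was 0.88 and 1.06. MYH6 was 11.5 and 5.76 there against 930 and 1365 with DMSO. Blood and macrophage markers, 6 genes, summed to 3.47 to 4.98 FPKM in all 12 libraries.

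Sequence before the RefSeq start of 3 members is shown because they lead the results. They are TIMP3 and TFPI2, the inhibitors that fell with F-53B, and MMP14, the most abundant of the membrane-type proteases that rose. RefSeq promoter windows on GRCh38.p14 were used, 250 bases before each start, and 28 of the 47 members had one. Capitals mark the GC box GGGCGG on either strand or TGANTCA, used as a loose AP-1-like pattern. In this pattern N is any base, and the pattern is its own reverse complement. The TIMP3 stretch is chr22:32801455-32801700 on the plus strand, the MMP14 stretch is chr14:22836335-22836556 on the plus strand, and the TFPI2 stretch is chr7:93890824-93890850 on the minus strand, each written 5′ to 3′.
TIMP3: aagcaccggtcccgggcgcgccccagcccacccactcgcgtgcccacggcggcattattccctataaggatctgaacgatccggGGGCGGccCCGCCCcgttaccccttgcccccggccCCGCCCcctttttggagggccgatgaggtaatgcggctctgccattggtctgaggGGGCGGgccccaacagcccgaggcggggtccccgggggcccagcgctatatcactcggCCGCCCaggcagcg
MMP14: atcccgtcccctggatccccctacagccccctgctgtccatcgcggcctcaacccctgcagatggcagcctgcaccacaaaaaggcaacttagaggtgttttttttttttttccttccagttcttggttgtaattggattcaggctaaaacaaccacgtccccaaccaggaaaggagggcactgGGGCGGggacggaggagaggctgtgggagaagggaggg
TFPI2: tccccgtgcaTGAATCAgccacccctc
The TIMP3 and MMP14 windows were cut to end before the GENCODE start of each gene, to 246 bases for TIMP3 and 222 for MMP14. The TIMP3 stretch holds 5 GC boxes and the MMP14 stretch holds 1. Of all 35116 windows of 250 bases 42.6% hold at least 1 GC box, as do 17 of the 18 tested members with a window. Among them are MMP15 with 5, ADAMTS7 with 7 and TFPI2 with 2 outside its printed bases. The median GC content was 58% over all windows. It was 72.4% for TIMP3, 56.8% for MMP14, 74.8% for MMP15, 80.8% for ADAMTS7 and 64.4% for TFPI2. These shares were not matched for GC content. The TFPI2 stretch is cut to 27 bases around a match to the AP-1-like pattern that begins 87 bases before the RefSeq start. The match is TGAATCA, with A at the centre. This stretch is not outside the annotated gene, since GENCODE places TFPI2 at 93885396 to 93890991 on the minus strand. The AP-1-like pattern is found in 6.57% of all windows, and in 2 of the 18 tested members with a window, TFPI2 and ADAMTS12. Such a match is a description of the letters and not of binding.

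With F-53B, MMP2, MMP14, MMP16, ADAMTS15 and TIMP2 rose at both days, and TIMP3, TFPI2, MMP15 and ADAMTS8 fell at both days. Fewer members changed with PFOS, among them MMP2 and MMP14, which rose at both days. With F-53B against DMSO at day 8, 10 of the 30 tested members rose and 7 fell, where 44.0% of all genes tested were called. At day 12 with F-53B, 16 rose and 6 fell, against 56.2% of all genes; the 16 include ADAMTS5, which passed the filter only through this group. With PFOS at day 8, 5 rose and 5 fell, against 6.77% of all genes, and at day 12, 6 rose and 1 fell, against 12.3%. The median change of the tested members was 0.19 with F-53B at day 8 and 0.31 at day 12, beside 0.02 and 0.00 over all genes tested, and with PFOS it was 0.10 and 0.01, beside 0.03 and 0.02. Both compounds share the DMSO libraries of their day, so calls of the same gene with each are not independent. The PFOS counts rested on single libraries: leaving out DMSO replicate 1, DMSO replicate 2 or PFOS replicate 1 turned the 10 calls at day 8 into 6, 2 and 2 in that order, and they were 3 with only the compared libraries fitted. The 7 calls at day 12 became 2 without either DMSO library and 3 without PFOS replicate 1.

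**Figure D1:**
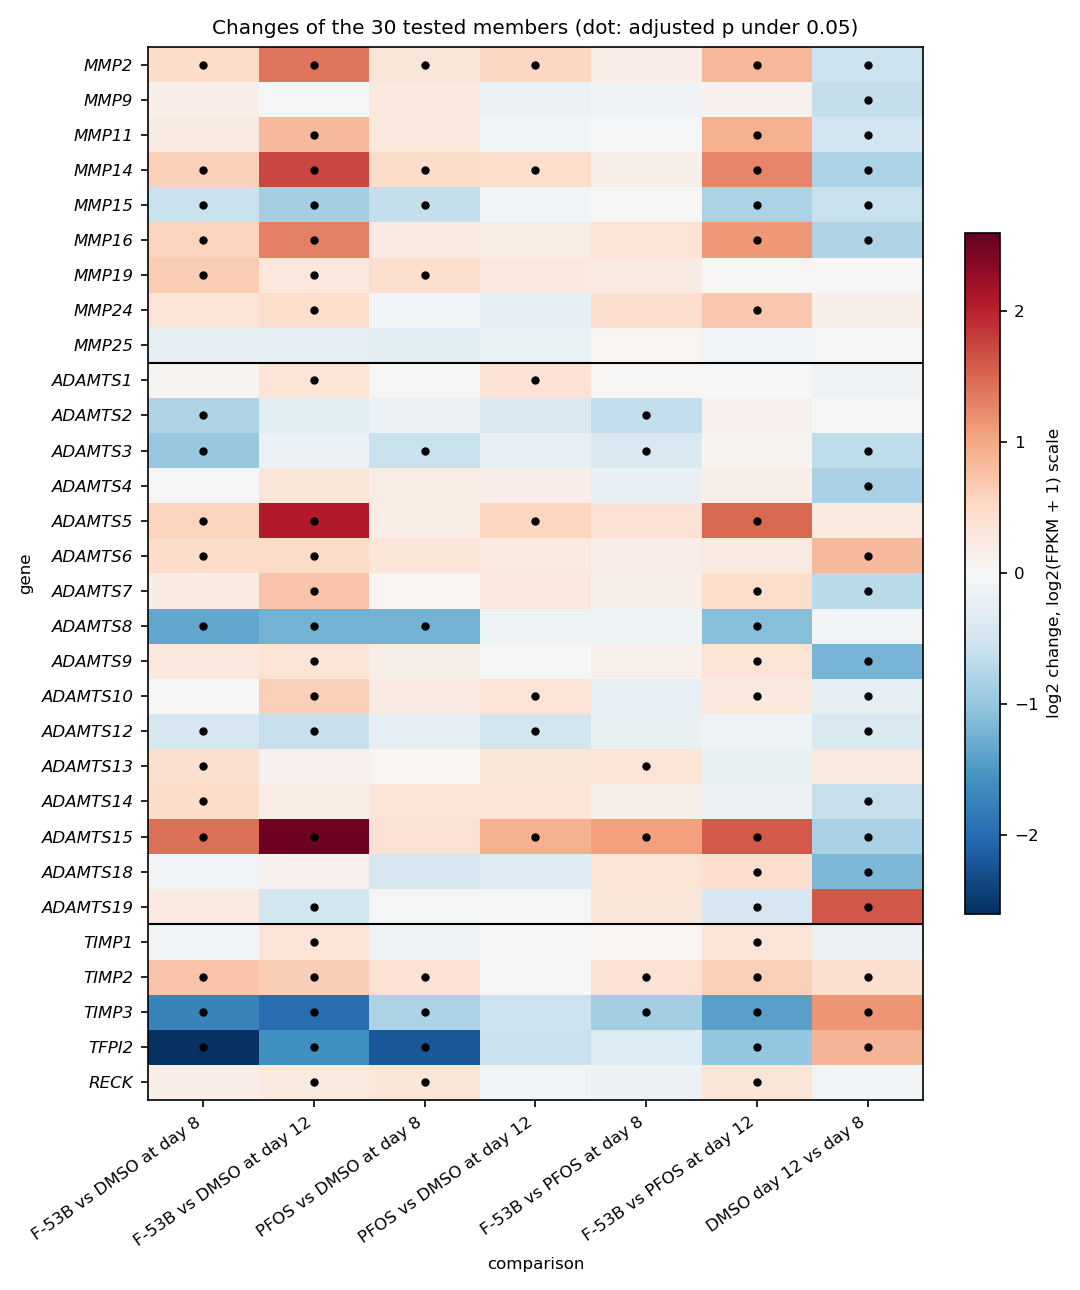
Heat map of the log2 change, on the log2(FPKM + 1) scale, of the 30 tested members (rows, in the order MMP, ADAMTS, inhibitors) in 7 comparisons (columns), with a dot where the adjusted p was under 0.05. TIMP3 and TFPI2 are blue in every comparison of a compound with DMSO while MMP2 and MMP14 are red, and the last column, DMSO over time, shows the opposite colours for these 4 genes.

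MMP2, the gelatinase that cuts denatured collagen and collagen IV (chromosome 16, 55389700 to 55506691), was among the most abundant members. It stood at 105 and 108 FPKM with DMSO, 151 and 147 with F-53B and 139 and 126 with PFOS at day 8. At day 12 it was measured at 71.4 and 72.7 with DMSO, 191 and 190.2 with F-53B and 106 and 104 with PFOS. At each day both compounds lay above DMSO without overlap, and F-53B lay above PFOS. Against DMSO, MMP2 rose with F-53B by 0.48 on the log2 scale at day 8 (SE 0.07, adjusted p = 0.00024) and by 1.39 at day 12 (SE 0.07, adjusted p = 6.34e-08), a fold of 1.4 and 2.65. With PFOS the rise was 0.53 at day 12 (SE 0.07, adjusted p = 0.000601) and 0.31 at day 8 (SE 0.07, adjusted p = 0.0211). The day 8 PFOS call was lost on leaving out day 8 DMSO replicate 1 (adjusted p = 0.0911), day 8 DMSO replicate 2 (0.121) or day 8 PFOS replicate 1 (0.203). In these bulk samples, fewer cells of a type and less RNA per cell cannot be told apart. The summed FPKM of 8 fibroblast markers was 1630.4 to 1812 with DMSO, 3227 to 3298 with F-53B and 1912 to 2446 with PFOS at day 8, and 392 to 404, 1885 to 2230.2 and 821 to 955 at day 12. COL1A1, COL1A2 and COL3A1 made up most of these sums. All 8 markers were above DMSO with F-53B at day 12. PDGFRA was lower with F-53B at day 8, at 39.0 and 37.4 FPKM against 50.4 and 51.7 with DMSO, and POSTN was not higher with PFOS at day 12, at 0.64 and 0.98 against 0.96 and 1.30. The part of these markers in the MMP2 result was not tested.

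MMP14, the membrane-type protease that activates MMP2 (chromosome 14, 22836557 to 22849027), followed a similar order of groups. Its FPKM were 83.1 and 83.7 with DMSO, 128 and 131 with F-53B and 128 and 106 with PFOS at day 8. The day 12 values were 47.0 and 45.9 with DMSO, 142 and 172 with F-53B and 73.4 and 56.6 with PFOS. DMSO was the lowest group at both days, F-53B overlapped PFOS at day 8, and at day 12 every F-53B library was above every PFOS library. MMP14 rose by 0.63 with F-53B at day 8 (SE 0.13, adjusted p = 0.00224) and by 1.73 at day 12 (SE 0.13, adjusted p = 8.8e-07), where the fold was 3.38. With PFOS it rose by 0.48 at day 8 (SE 0.13, adjusted p = 0.0473) and by 0.46 at day 12 (SE 0.13, adjusted p = 0.0366). Both PFOS calls were close to the threshold. A replicate block (adjusted p = 0.0619), no filter (0.0755) or only the compared libraries (0.0557) ended the day 8 call. No filter (0.0612) also ended the day 12 call. The day 8 call was lost on leaving out day 8 DMSO replicate 1 (adjusted p = 0.137), day 8 DMSO replicate 2 (0.216) or day 8 PFOS replicate 1 (0.319) and with both other scalings (0.0748 and 0.0676). The day 12 call was lost on leaving out day 12 DMSO replicate 1 (adjusted p = 0.139), day 12 DMSO replicate 2 (0.186) or day 12 PFOS replicate 1 (0.237) and with equal FPKM totals (0.0819).

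MMP15, another membrane-type protease (chromosome 16, 58025566 to 58046901), went the other way. It was highest in the day 8 DMSO libraries, at 128 and 141 FPKM, and was 88.7 and 89.4 with F-53B and 88.7 and 84.6 with PFOS. By day 12 its level was 93.6 and 85.4 with DMSO, 55.4 and 41.2 with F-53B and 88.7 and 80.9 with PFOS. Both compounds were below DMSO at day 8 and overlapped each other, whereas at day 12 F-53B alone lay below both other groups and PFOS overlapped DMSO. MMP15 fell by 0.59 with F-53B (SE 0.12, adjusted p = 0.0019) and by 0.63 with PFOS (SE 0.12, adjusted p = 0.01) at day 8, and by 0.89 with F-53B at day 12 (SE 0.12, adjusted p = 5.97e-05). The day 8 PFOS call was lost on leaving out day 8 DMSO replicate 2 (adjusted p = 0.113) or day 8 PFOS replicate 1 (0.0666). The day 12 PFOS change was -0.08 (adjusted p = 0.716).

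MMP2, MMP14 and MMP15 together held 92.5% to 94.4% of all MMP FPKM in every library, so the balance within the family was set by these 3 genes. The ratio of MMP14 to MMP15, both per length, was 0.649 and 0.593 with DMSO, 1.44 and 1.46 with F-53B and 1.45 and 1.25 with PFOS at day 8. The day 12 ratios were 0.503 and 0.538 with DMSO, 2.57 and 4.17 with F-53B and 0.828 and 0.7 with PFOS. MMP15 was therefore the more abundant of the pair in all 4 DMSO libraries and both day 12 PFOS libraries, and MMP14 in the other 6. Summed MMP FPKM at day 12 was 229 and 220 with DMSO, 414 and 433 with F-53B and 285 and 257 with PFOS.

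**Figure D2:**
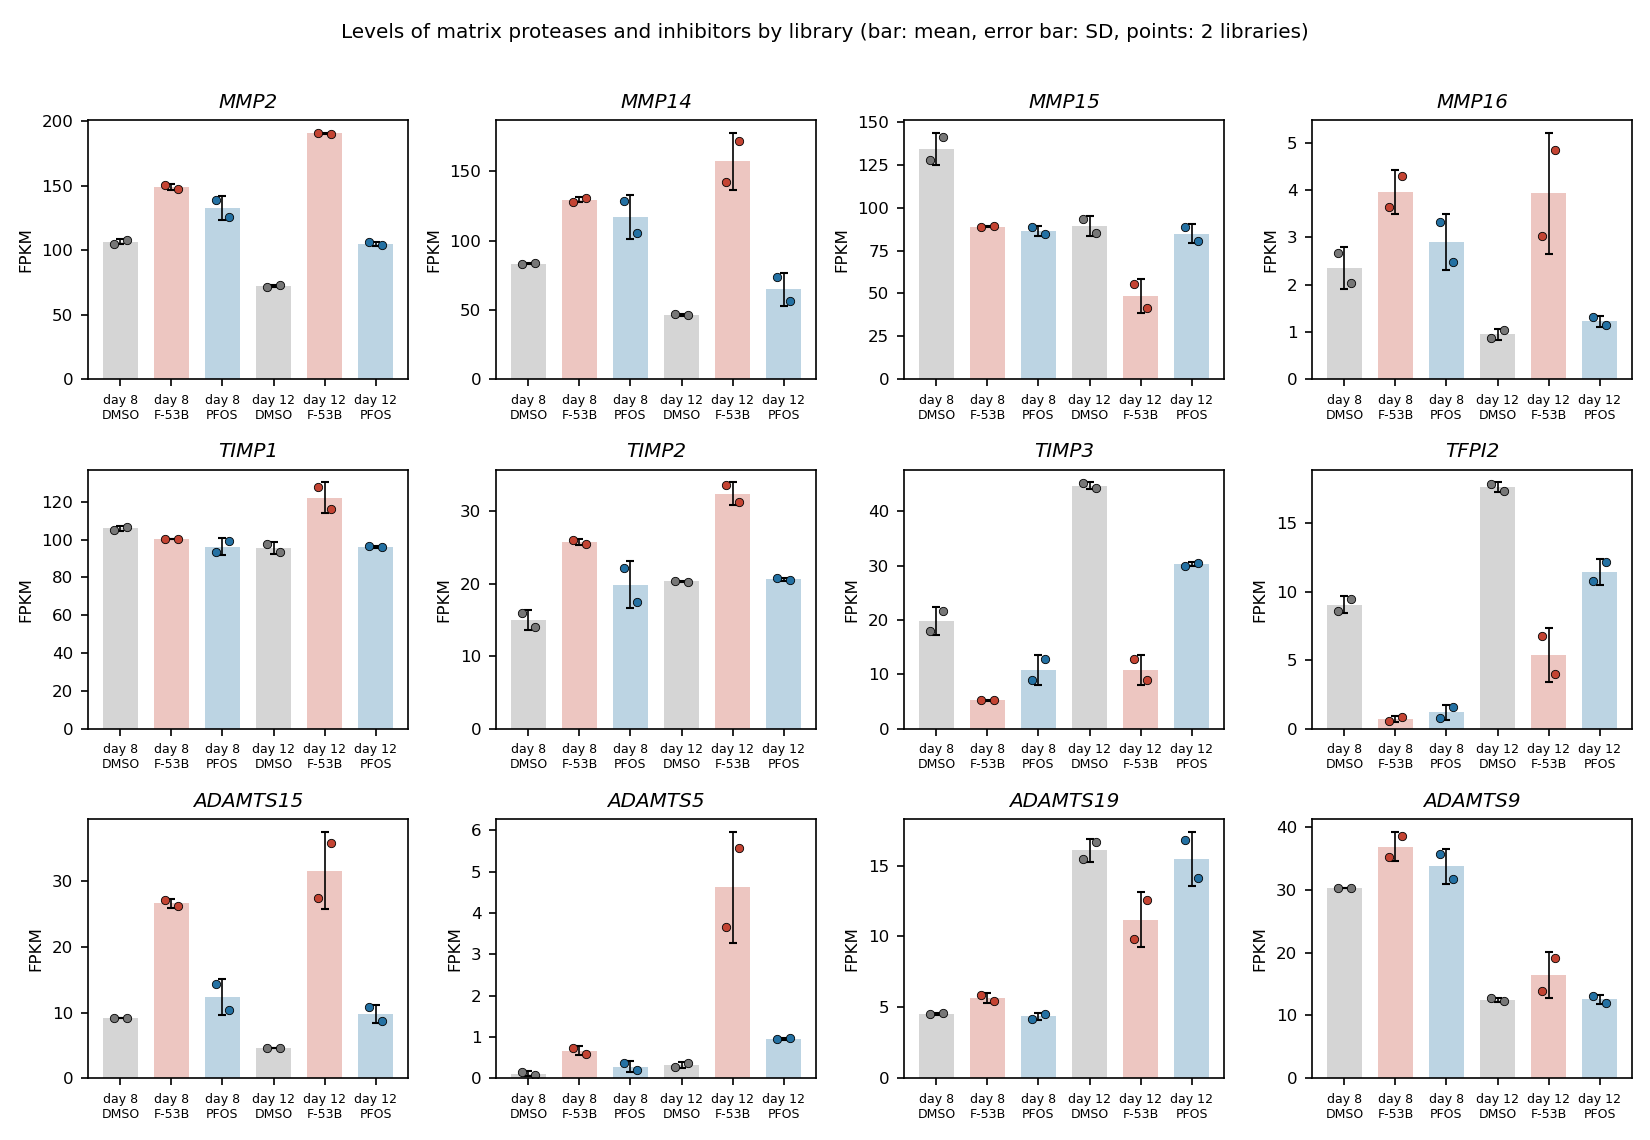
FPKM of 12 members (panels) in the 6 groups, with bars for the mean, error bars for the SD and points for the 2 libraries. MMP2 and MMP14 are tallest with F-53B at day 12, while TIMP3 and TFPI2 are tallest with DMSO at day 12.

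The other MMP genes were far lower. MMP16, a membrane-type protease that cuts collagen III, was 0.87 and 1.03 FPKM with DMSO, 3.03 and 4.84 with F-53B and 1.31 and 1.14 with PFOS at day 12. Both F-53B libraries were above the other day 12 libraries. At day 12 it rose by 1.32 with F-53B (SE 0.18, adjusted p = 6.65e-05), a fold of 4.14, and at day 8, from 2.66 and 2.03 to 3.63 and 4.29 FPKM, by 0.57 (SE 0.18, adjusted p = 0.0208), a call lost on leaving out day 8 DMSO replicate 2 (adjusted p = 0.147) or day 8 F-53B replicate 2 (0.134). MMP11, a stromelysin that furin activates inside the cell, rose with F-53B at day 12 by 0.85 (SE 0.10, adjusted p = 2.84e-05), from 5.32 and 5.43 to 10.5 and 10.4 FPKM, while PFOS stood at 4.97 and 5.10. The day 12 PFOS libraries of MMP11 lay just below DMSO and far below F-53B. MMP19, which cuts basement membrane proteins, rose with F-53B at day 8 by 0.65 (SE 0.09, adjusted p = 0.000181), from 5.27 and 4.43 to 8.14 and 8.18 FPKM. With PFOS at day 8 it was 6.95 and 6.70 FPKM and rose by 0.42 (adjusted p = 0.0171), a call lost on leaving out day 8 DMSO replicate 2 (adjusted p = 0.169) or day 8 PFOS replicate 1 (0.14). At day 12, from 5.06 and 4.64 to 6.21 and 6.23 FPKM, MMP19 rose by 0.30 with F-53B (adjusted p = 0.0121), which was lost on leaving out day 12 DMSO replicate 2 (adjusted p = 0.0927). MMP24, a membrane-type protease of neural tissue, was 3.36 and 2.73 FPKM with DMSO against 3.54 and 5.66 at day 12 with F-53B. It rose by 0.45 (SE 0.16, adjusted p = 0.0298), and the call was lost on leaving out day 12 DMSO replicate 2 (adjusted p = 0.189) or day 12 F-53B replicate 2 (0.329). MMP24 lies within MMP24OS on the opposite strand, and MMP11 overlaps CHCHD10. MMP9, the other gelatinase, and MMP25 stayed at 1.57 FPKM or less and passed in no comparison of a compound with DMSO.

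Among the ADAMTS genes is the proteoglycan-cutting ADAMTS15 (chromosome 11, 130448974 to 130476641). On the log2(FPKM + 1) scale it showed the largest rise of any tested member with F-53B at each day. By fold ADAMTS5, which was near the floor with DMSO, rose further, 6.045-fold at day 8 and 14.2-fold at day 12. ADAMTS15 was measured at 9.19 and 9.13 FPKM with DMSO, 27.1 and 26.1 with F-53B and 14.4 and 10.4 with PFOS at day 8. At day 12 the values were 4.65 and 4.61 with DMSO, 27.4 and 35.8 with F-53B and 10.8 and 8.76 with PFOS. DMSO, PFOS and F-53B stood in this order at both days with no overlap. With F-53B it rose by 1.44 at day 8 (SE 0.15, adjusted p = 3.67e-05) and by 2.52 at day 12 (SE 0.15, adjusted p = 2.41e-07), folds of 2.9 and 6.82. With PFOS it rose by 0.93 at day 12 (SE 0.15, adjusted p = 0.00252), and its day 8 change of 0.38 did not pass (adjusted p = 0.151).

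ADAMTS5, the main aggrecan-cutting protease of cartilage and a versican-cutting enzyme of developing heart valves, was near the floor without F-53B. Its FPKM at day 8 were 0.15 and 0.07 with DMSO, 0.74 and 0.59 with F-53B and 0.37 and 0.19 with PFOS. At day 12 they were 0.27 and 0.38 with DMSO, 3.67 and 5.57 with F-53B and 0.94 and 0.97 with PFOS, so only the day 12 F-53B libraries exceeded 1 FPKM. ADAMTS5 passed the filter only through those libraries, so its day 12 F-53B level, 14.2 times the DMSO mean, is given as a description with no test. Smaller rises were between levels that were all under 1 FPKM. They were 0.58 with F-53B at day 8 (adjusted p = 0.00998) and 0.56 with PFOS at day 12 (adjusted p = 0.0366, and 0.0512 with a replicate block). The day 8 call was lost on leaving out day 8 DMSO replicate 2 (adjusted p = 0.0609) or day 8 F-53B replicate 1 (0.0695), and the PFOS call without day 12 DMSO replicate 1 (adjusted p = 0.189), day 12 DMSO replicate 2 (0.123), day 12 PFOS replicate 1 (0.132) or day 12 PFOS replicate 2 (0.0944).

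ADAMTS8, a relative of ADAMTS15 that is its neighbour on chromosome 11 (130404925 to 130428993), moved in the opposite direction. It is named here after its values were seen, since it never reached a group mean of 2 FPKM. Its levels were 1.13 and 2.44 FPKM with DMSO, 0.05 and 0.08 with F-53B and 0.20 and 0.10 with PFOS at day 8, and 1.73 and 1.43, 0.13 and 0.07 and 1.30 and 1.45 in the same order at day 12. F-53B libraries were at the floor on both days, whereas PFOS libraries were at the floor at day 8 and overlapped DMSO at day 12. It fell by 1.35 with F-53B at day 8 (SE 0.18, adjusted p = 0.000176), by 1.24 with PFOS at day 8 (SE 0.18, adjusted p = 0.00315) and by 1.23 with F-53B at day 12 (SE 0.18, adjusted p = 0.000156). Some endothelial markers stood in a like order: ESAM was 3.49 and 4.47 FPKM with DMSO, 0.31 and 0.31 with F-53B and 0.55 and 0.59 with PFOS at day 8, and 4.44 and 4.35, 1.38 and 0.60 and 4.01 and 3.29 at day 12, with CDH5 and PECAM1 also lowest with F-53B at both days. Over all 6 endothelial markers, of which KDR and TEK made up most, the sums were 70.0 to 83.6, 63.5 to 65.6 and 61.3 to 61.9 FPKM at day 8 and 46.7 to 48.5, 27.1 to 31.6 and 34.8 to 39.6 at day 12. TEK was higher with F-53B than with DMSO, at 18.7 and 18.3 against 15.5 and 17.6 FPKM at day 8. At day 12 it was 6.29 and 9.46 against 4.01 and 3.99. KDR with F-53B overlapped DMSO at day 8, with 42.9 and 45.6 against 43.9 and 50.3. The part of the endothelial markers in the ADAMTS8 result was not tested.

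The procollagen N-proteinases ADAMTS2, ADAMTS3 and ADAMTS14, which trim fibrillar procollagens, did not move together. ADAMTS3 was 7.67 and 7.68 FPKM with DMSO, 3.45 and 3.36 with F-53B and 4.05 and 5.67 with PFOS at day 8, and it fell by 0.98 with F-53B (SE 0.12, adjusted p = 0.000116). Its fall of 0.58 with PFOS (adjusted p = 0.0188) was lost on leaving out day 8 DMSO replicate 1 (adjusted p = 0.0649), day 8 DMSO replicate 2 (0.127) or day 8 PFOS replicate 1 (0.175). All 4 day 8 libraries with a compound were below both DMSO libraries. ADAMTS2 fell by 0.78 with F-53B at day 8 (SE 0.13, adjusted p = 0.000595), from 3.99 and 3.51 to 1.60 and 1.94 FPKM, and PFOS overlapped DMSO at 2.87 and 3.74. ADAMTS14 rose there by 0.49 (SE 0.14, adjusted p = 0.0163), from 3.47 and 2.36 to 4.63 and 4.23 FPKM, a call lost on leaving out day 8 DMSO replicate 2 (adjusted p = 0.164) or day 8 F-53B replicate 1 (0.0968). None of these 3 genes was called at day 12 with either compound.

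Of the remaining ADAMTS genes, ADAMTS12, which binds cartilage oligomeric matrix protein, and ADAMTS19 fell and 6 genes rose in at least 1 comparison with DMSO. ADAMTS12 was 14.1 and 13.4 FPKM with DMSO, 8.68 and 8.67 with F-53B and 10.4 and 8.95 with PFOS at day 12. Both compounds lay below DMSO there, with falls of 0.61 (SE 0.11, adjusted p = 0.000594) and 0.47 (SE 0.11, adjusted p = 0.0173). The PFOS call was lost on leaving out day 12 DMSO replicate 1 (adjusted p = 0.116), day 12 DMSO replicate 2 (0.0827) or day 12 PFOS replicate 2 (0.0772), and a fall of 0.45 with F-53B at day 8 (adjusted p = 0.00652) was lost on leaving out day 8 DMSO replicate 2 (adjusted p = 0.072) or day 8 F-53B replicate 2 (0.0558). ADAMTS7, the other protease that binds this protein, rose by 0.74 with F-53B at day 12 (SE 0.12, adjusted p = 0.000249), from 10.3 and 8.85 to 18 and 15.4 FPKM. The pair thus changed in opposite directions with F-53B at day 12. ADAMTS10, a protease linked to fibrillin microfibrils, rose by 0.63 with F-53B (SE 0.09, adjusted p = 8.71e-05) and by 0.36 with PFOS (SE 0.09, adjusted p = 0.0205) at day 12, from 8.98 and 8.21 FPKM with DMSO to 14.3 and 13.3 and 11.9 and 10.7. The PFOS call was lost on leaving out day 12 DMSO replicate 1 (adjusted p = 0.0589), day 12 DMSO replicate 2 (0.172) or day 12 PFOS replicate 1 (0.125). ADAMTS6, its closest relative, rose with F-53B by 0.49 at day 8 (adjusted p = 0.00354), from 3.49 and 3.01 to 4.95 and 4.94 FPKM, and by 0.49 at day 12 (adjusted p = 0.00215). ADAMTS1, a versican-cutting protease expressed in the developing heart, was 19.2 and 19.1 FPKM with DMSO, 25.1 and 24.3 with F-53B and 25.7 and 24.3 with PFOS at day 12. Its rises of 0.35 with F-53B (adjusted p = 0.00235) and 0.37 with PFOS (adjusted p = 0.0107) were alike in size, and the PFOS call was lost on leaving out day 12 DMSO replicate 1 (adjusted p = 0.0692), day 12 DMSO replicate 2 (0.0827) or day 12 PFOS replicate 1 (0.0646). ADAMTS13, which cuts von Willebrand factor, rose by 0.41 with F-53B at day 8 (adjusted p = 0.00765), from 1.97 and 1.86 to 2.96 and 2.80 FPKM, a call lost on leaving out day 8 F-53B replicate 1 (adjusted p = 0.0556). ADAMTS9, a versican-cutting protease, rose by 0.36 with F-53B at day 12 (adjusted p = 0.0239), from 12.7 and 12.3 to 13.9 and 19.1 FPKM, which was lost on leaving out day 12 DMSO replicate 1 (adjusted p = 0.0669), day 12 DMSO replicate 2 (0.108) or day 12 F-53B replicate 2 (0.276). ADAMTS19 fell by 0.49 with F-53B at day 12 (SE 0.11, adjusted p = 0.00318), from 15.5 and 16.7 to 9.81 and 12.6 FPKM, with PFOS at 16.8 and 14.1. ADAMTS4, an aggrecan-cutting protease that ran from 1.21 to 3.99 FPKM, and ADAMTS18, from 0.27 to 2.67, passed in no comparison of a compound with DMSO.

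The inhibitors split by gene. TFPI2 (chromosome 7, 93885396 to 93890991, minus strand) is a matrix-bound Kunitz inhibitor of plasmin and other serine proteases. On the log2(FPKM + 1) scale it had the largest fall of any tested member at day 8 with either compound. By fold ADAMTS8, a lower gene, fell further at day 8. It was 27.5-fold lower with F-53B and went from a mean of 1.785 to 0.15 FPKM with PFOS. TFPI2 was 8.63 and 9.51 FPKM with DMSO, 0.58 and 0.84 with F-53B and 0.81 and 1.60 with PFOS at day 8. The day 12 libraries held 17.9 and 17.4 with DMSO, 6.75 and 3.97 with F-53B and 10.8 and 12.1 with PFOS. Every library with a compound lay below both DMSO libraries of its day, and F-53B overlapped PFOS at day 8 only. TFPI2 fell by 2.56 with F-53B (SE 0.20, adjusted p = 1.26e-05) and by 2.21 with PFOS (SE 0.20, adjusted p = 0.000717) at day 8, 12.8-fold and 7.52-fold lower. At day 12 it fell by 1.59 with F-53B (SE 0.20, adjusted p = 7.42e-05), 3.29-fold, and changed by -0.58 with PFOS without passing (adjusted p = 0.0915), although it passed there with only the compared libraries fitted (0.00397).

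TIMP3 (chromosome 22, 32801701 to 32863043) was the inhibitor with the deepest log2 fall with F-53B at day 12. It read 18.0 and 21.7 FPKM with DMSO, 5.34 and 5.19 with F-53B and 8.91 and 12.8 with PFOS at day 8. At day 12 it read 45.2 and 44.2 with DMSO, 12.7 and 8.90 with F-53B and 29.95 and 30.5 with PFOS. F-53B was lowest, PFOS intermediate and DMSO highest at both days, with no overlap between any pair of groups. TIMP3 fell by 1.73 with F-53B at day 8 (SE 0.17, adjusted p = 3.31e-05) and by 1.97 at day 12 (SE 0.17, adjusted p = 4.25e-06), which is 3.77-fold and 4.13-fold lower. With PFOS it fell by 0.83 at day 8 (SE 0.17, adjusted p = 0.0165), a call lost on leaving out day 8 DMSO replicate 2 (adjusted p = 0.152) or day 8 PFOS replicate 1 (0.134). The day 12 PFOS change of -0.55 did not pass (adjusted p = 0.0582) and passed under 3 of the other settings, at adjusted p-values down to 0.00286. The cardiomyocyte sums given above stand in the same order of groups at both days, though not every marker does. At day 12 TNNT2 was 2483 and 2184 FPKM with PFOS against 2028 and 2041 with DMSO. MYH6 overlapped there, at 1857 and 1319 against 1795 and 1784. Sums of 4 smooth muscle markers were 638 to 823 FPKM with DMSO, 123 to 137 with F-53B and 306 to 448 with PFOS at day 8, and 603 to 611, 371 to 393 and 562 to 599.6 at day 12. Single smooth muscle markers departed from this order. At day 12 MYH11 was 3.09 and 2.99 FPKM with F-53B against 1.33 and 1.13 with DMSO. ACTA2 was 347 and 388 with PFOS against 285 and 281 with DMSO at day 12. TAGLN was higher with F-53B than with PFOS, at 67.5 and 63.4 against 54.9 and 55.0 at day 8. At day 12 it was 156 and 171 against 123 and 116. The part of either set of markers in the TIMP3 result was not tested.

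TIMP2, the inhibitor that also takes part in MMP2 activation (chromosome 17, 78852977 to 78925387), moved opposite to TIMP3. Its FPKM were 15.9 and 14.0 with DMSO, 26 and 25.4 with F-53B and 22.1 and 17.5 with PFOS at day 8, and 20.4 and 20.3, 33.5 and 31.3 and 20.7 and 20.5 at day 12. F-53B was above the other groups at each day. It rose by 0.74 at day 8 (SE 0.10, adjusted p = 0.000155) and by 0.65 at day 12 (SE 0.10, adjusted p = 0.000185) with F-53B. PFOS was called at day 8 (0.37, adjusted p = 0.0447) and not at day 12 (0.02, adjusted p = 0.928). The day 8 PFOS call ended under both other scalings (0.0541 and 0.065) and without day 8 DMSO replicate 1 (adjusted p = 0.052), day 8 DMSO replicate 2 (0.303) or day 8 PFOS replicate 1 (0.329). The ratio of TIMP3 to TIMP2, per length, was 2.22 and 2.18 with DMSO, 0.38 and 0.284 with F-53B and 1.44 and 1.49 with PFOS at day 12. At day 8 the ratio was 1.13 and 1.54, 0.205 and 0.204 and 0.403 and 0.728 in the same order, so TIMP3 exceeded TIMP2 in every DMSO library and was under TIMP2 in every F-53B library.

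TIMP1 (chromosome X, 47582313 to 47586789) was the most abundant inhibitor in every library. It ran from 93.2 to 107 FPKM in the 10 libraries outside the day 12 F-53B group, whose libraries were at 128 and 116. That group lay above all others, and its rise over DMSO was 0.35 (SE 0.07, adjusted p = 0.00131). RECK, a membrane-anchored inhibitor of MMP2, MMP9 and MMP14 (chromosome 9, 36036433 to 36124451), ran from 9.82 to 14.6 FPKM. It rose by 0.32 with PFOS at day 8 (adjusted p = 0.0391, and 0.0509 with a replicate block), from 11.5 and 10.8 to 14.6 and 13.7 FPKM. With F-53B at day 12 it rose by 0.24 (adjusted p = 0.023), from 10.2 and 10.8 to 13.5 and 11.8. The PFOS call ended without any 1 of the 4 compared libraries (0.0619 to 0.254), and the F-53B call without day 12 DMSO replicate 1 (adjusted p = 0.132) or day 12 F-53B replicate 1 (0.188). TIMP1, TIMP3 and TIMP4 each lie within a synapsin gene on the opposite strand (SYN1, SYN3 and SYN2), and TFPI2 lies within GNGT1. Whether counting used strand is not given in the sources used here, so reads of such overlapping genes cannot be told apart.

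Compared directly at the same dose and day, the compounds differed in fewer members at day 8 than at day 12. At day 8, 3 members were higher with F-53B than with PFOS and 3 were lower, where 28.3% of all genes were called. These 6 calls became 3 without either F-53B library, 2 without PFOS replicate 2 and 11 with equal FPKM totals. ADAMTS15 was higher with F-53B by 1.06 (SE 0.15, adjusted p = 0.00111) and TIMP3 lower by 0.90 (SE 0.17, adjusted p = 0.00395). TIMP2 (0.37, adjusted p = 0.0183) and ADAMTS13 (0.36, adjusted p = 0.0254) were higher, and ADAMTS2 (-0.63, adjusted p = 0.00518) and ADAMTS3 (-0.40, adjusted p = 0.0338) were lower. Each of these last 4 calls ended without day 8 PFOS replicate 2 (0.19, 0.194, 0.067 and 0.321 in that order), and all of them but ADAMTS2 also ended without either F-53B library (0.0818 to 0.148). No MMP gene was called between the compounds at day 8, and the 95% limits of the difference were -0.13 to 0.43 for MMP14, -0.22 to 0.30 for MMP15 and 0.02 to 0.32 for MMP2, whose adjusted p was 0.0852 and 0.0292 with equal FPKM totals. TFPI2 differed by -0.35, with limits of -0.80 to 0.11, which leaves room for a difference in either direction.

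At day 12, 14 members were higher with F-53B than with PFOS and 5 were lower, where 47.9% of all genes were called. MMP14 differed by 1.27 (SE 0.13, adjusted p = 2.23e-05), MMP2 by 0.86 (SE 0.07, adjusted p = 6.67e-06) and MMP16 by 1.13 (SE 0.18, adjusted p = 0.000335). ADAMTS15 differed by 1.59 (SE 0.15, adjusted p = 1.66e-05) and MMP11 by 0.92 (SE 0.10, adjusted p = 3.38e-05). The 14 include ADAMTS5, which is not read as a test here because only the day 12 F-53B libraries brought it past the filter. TIMP3 was lower with F-53B by 1.42 (SE 0.17, adjusted p = 7.98e-05), ADAMTS8 by 1.11 (SE 0.18, adjusted p = 0.000484), TFPI2 was also lower (SE 0.20, adjusted p = 0.00225), and so was MMP15 by 0.81 (SE 0.12, adjusted p = 0.000199). All 5 tested inhibitors were called in this comparison, TIMP1, TIMP2 and RECK being higher with F-53B and TIMP3 and TFPI2 lower. The RECK call (0.31, adjusted p = 0.00836) was lost on leaving out day 12 F-53B replicate 1 (adjusted p = 0.0782). Smaller differences were called for ADAMTS7 (0.45), ADAMTS9 (0.35), ADAMTS10 (0.27), ADAMTS18 (0.43, all levels under 1 FPKM), MMP24 (0.69) and ADAMTS19 (-0.44). Of these, all but MMP24 were lost on leaving out at least 1 of the 4 libraries, among which were day 12 F-53B replicate 2 for ADAMTS9 (0.323) and ADAMTS18, F-53B replicate 1 for ADAMTS7, ADAMTS10 and ADAMTS19, and either PFOS library for ADAMTS9 and ADAMTS18. ADAMTS1 (-0.19 to 0.15) and MMP19 (-0.16 to 0.23) had 95% limits within 0.23 of 0.

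**Figure D3:**
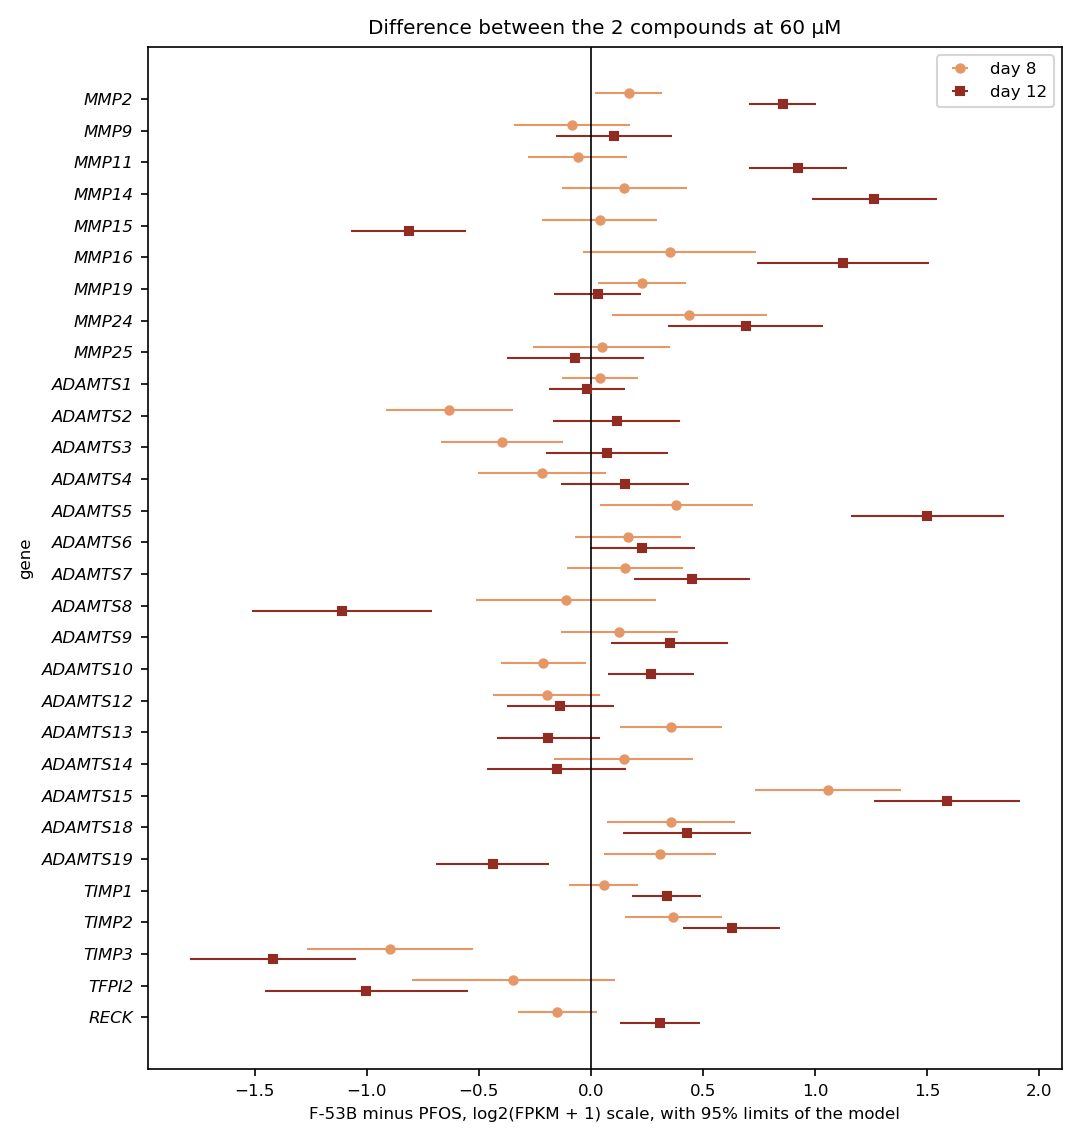
Difference between F-53B and PFOS, in log2(FPKM + 1), of the 30 tested members (rows) at day 8 (circles) and day 12 (squares), with 95% limits of the model as lines. No MMP gene was called at day 8, and MMP2, MMP11, MMP14 and MMP16 lie to the right at day 12, with MMP15, ADAMTS8, TIMP3 and TFPI2 to the left.

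In DMSO alone, more proteases fell than rose from day 8 to day 12, and of the 5 tested inhibitors 3 rose and 0 fell. Of the tested members 5 rose and 15 fell, where 37.7% of all genes were called, with a median of -0.20 beside 0.03 over all genes. TIMP3 rose by 1.14 (SE 0.17, adjusted p = 0.000422), TFPI2 by 0.89 (SE 0.20, adjusted p = 0.00627) and TIMP2 by 0.42 (SE 0.10, adjusted p = 0.00646), the last ending without day 8 DMSO replicate 2 (adjusted p = 0.0612). MMP14 fell by 0.83 (SE 0.13, adjusted p = 0.000427), MMP15 by 0.58 (SE 0.12, adjusted p = 0.00242) and MMP2 by 0.56 (SE 0.07, adjusted p = 8.37e-05). Of the 9 tested MMP genes 6 fell and 0 rose. ADAMTS9 fell by 1.21 (SE 0.12, adjusted p = 1.68e-05), from 30.2 and 30.3 to 12.7 and 12.3 FPKM. The 15 include MMP9 and ADAMTS18, the latter going from 2.64 and 2.63 to 0.48 and 0.77 FPKM. Both genes passed the filter only through day 8 libraries, so their falls are given as a description with no test. ADAMTS19 and ADAMTS6 were the ADAMTS genes that rose, ADAMTS19 by 1.62 (SE 0.11, adjusted p = 1.66e-06), from 4.50 and 4.58 to 15.5 and 16.7 FPKM, and ADAMTS6 by 0.84 (SE 0.11, adjusted p = 0.000111). MMP11, MMP16, ADAMTS3, ADAMTS4, ADAMTS7, ADAMTS10, ADAMTS12, ADAMTS14 and ADAMTS15 also fell, by 0.25 to 0.85. Of these calls, ADAMTS10 was lost without any 1 of the 4 DMSO libraries and ADAMTS12 without 3 of them. MMP16 and ADAMTS14 were lost without day 8 replicate 1. These changes share the DMSO libraries with the comparisons above, so the opposite signs of TIMP3, TFPI2, MMP2 and MMP14 there are not independent of them.

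The effect of F-53B differed between days in 11 tested members, 10 of them higher at day 12 relative to day 8 and 1 lower, where 16.4% of all genes were called, and in 7 without day 8 F-53B replicate 2. MMP2 led by adjusted p, its F-53B effect being larger by 0.91 at day 12 (SE 0.10, adjusted p = 0.000115), and that of MMP14 was larger by 1.10 (SE 0.18, adjusted p = 0.00192). The 10 include ADAMTS5, which the same limit touches. ADAMTS19 was the gene with a lower effect at day 12, by 0.76 (SE 0.16, adjusted p = 0.00848). For TIMP3 the F-53B effect differed by -0.24, with 95% limits of -0.77 to 0.28 (adjusted p = 0.536). The PFOS effect differed between days in 1 tested member, TFPI2, where 1.41% of all genes were called. Its fall was smaller at day 12 by 1.63 (SE 0.29, adjusted p = 0.024), which was lost on leaving out any 1 of 7 of the 8 libraries compared (0.0546 to 0.108).

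Other genes of the pericellular proteolysis system, from lists chosen with earlier results of these data known, gave the surroundings of these changes. Their counts stand beside the shares of all genes called, 44.0% and 56.2% with F-53B and 6.77% and 12.3% with PFOS at days 8 and 12, and their medians beside 0.02 and 0.00 with F-53B over all genes tested. Of 9 tested plasminogen system genes, 2 rose and 2 fell with F-53B at day 8 and 4 rose and 2 fell at day 12, against 1 and 1, then 1 and 2, with PFOS. With F-53B this is 44.4% called at day 8 and 66.7% at day 12 (44.0% and 56.2% of all genes), with medians of -0.11 and -0.12. PLAT, tissue plasminogen activator, was 3.91 and 4.84 FPKM with DMSO, 36.9 and 47.4 with F-53B and 10.4 and 10.7 with PFOS at day 12. It rose with F-53B, by 1.52 at day 8 (adjusted p = 1.29e-05) and further at day 12 (adjusted p = 4.45e-08), and by 1.11 with PFOS at day 12 (adjusted p = 0.000407). SERPINF2, the plasmin inhibitor made by liver, fell by 1.62 with F-53B (adjusted p = 3.53e-06) and by 0.90 with PFOS (adjusted p = 0.00245) at day 12. Hepatic markers stood apart in the same libraries. Their summed FPKM of 6 genes was 463 to 645 with DMSO, 13.7 to 26.3 with F-53B and 178 to 258 with PFOS at day 12. At day 8 the sums were 56.2 to 102, 29.5 to 33.7 and 41.8 to 53.1 in the same order. APOA1 was higher with F-53B at day 8, at 33.0 and 29.1 FPKM against 17.2 and 15.6 with DMSO. With PFOS at day 8, APOA1 also lay above DMSO, as did AFP, at 4.93 and 4.83 FPKM against 1.53 and 1.67. APOB, TTR and FOXA2 were lower than DMSO with PFOS at day 8, and SERPINA1 overlapped DMSO. The part of the hepatic markers in the SERPINF2 and TFPI2 results was not tested.

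Of 8 tested convertase and tolloid genes, 4 rose and 2 fell with F-53B at day 8, 5 rose and 1 fell at day 12, and with PFOS 1 and then 2 rose with 0 falling. With F-53B this is 75% called at day 8 and 75% at day 12 (44.0% and 56.2% of all genes), with medians of 0.54 and 1.23. BMP1, the procollagen C-proteinase, was 12.2 and 12.1 FPKM with DMSO, 32.3 and 31.6 with F-53B and 18.4 and 17.9 with PFOS at day 12, with both compounds above DMSO. Its rises at day 12 were 1.33 (adjusted p = 4.65e-07) and 0.54 (adjusted p = 0.00285). TLL1, a tolloid relative of BMP1 that is among the 5, was 0.15 and 0.09 FPKM with DMSO and 2.53 and 5.49 with F-53B at day 12, and it passed the filter only through the latter, so no test is given. Of 10 ADAM genes, membrane-bound relatives that shed surface proteins, 6 rose and 0 fell with F-53B at day 8 and 4 rose and 2 fell at day 12. This is 60% called at day 8 and 60% at day 12 (44.0% and 56.2% of all genes), with medians of 0.31 and 0.14. ADAM12 rose by 1.14 and 2.24 with F-53B (adjusted p = 0.000395 and 1.66e-06). With PFOS 2 ADAM genes rose at day 8, and 2 rose and 2 fell at day 12.

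Of 11 cathepsin and HtrA genes, 5 rose and 2 fell with F-53B at day 8 and 6 rose and 0 fell at day 12, against 1 and 2, then 2 and 0, with PFOS. With F-53B this is 63.6% called at day 8 and 54.5% at day 12 (44.0% and 56.2% of all genes), with medians of 0.18 and 0.32. CTSK, a collagen-cutting cathepsin, rose by 1.11 with F-53B at day 12 (adjusted p = 2.22e-05), from 2.69 and 2.95 to 6.86 and 7.59 FPKM. Among 8 tested ADAMTS-like and cofactor genes, 4 rose and 3 fell with F-53B at each day, and with PFOS 0 were called at day 8 and 1 rose and 2 fell at day 12. The F-53B counts are 87.5% called at day 8 and 87.5% at day 12 (44.0% and 56.2% of all genes), with medians of 0.09 and 0.05. FBLN1, a cofactor of ADAMTS1, rose by 0.43 and 0.81 with F-53B at days 8 and 12 (adjusted p = 0.00229 and 1.47e-05). Of 8 tested genes for protease receptors, inducers and clearance, 2 rose and 3 fell with F-53B at day 8 and 5 rose and 1 fell at day 12, while with PFOS 0 rose and 2 fell, then 2 rose and 3 fell. The F-53B counts are 62.5% called at day 8 and 75% at day 12 (44.0% and 56.2% of all genes), with medians of 0.04 and 0.38. A2M, a secreted trap for all classes of protease, was 23.9 and 43.8 FPKM with DMSO and 0.39 and 0.26 with F-53B at day 8, and 55.6 and 48.6 and 5.81 and 1.99 at day 12. It fell by 4.66 (SE 0.40, adjusted p = 9.98e-05) and fell by 3.55 (SE 0.40, adjusted p = 0.000172). On the log2(FPKM + 1) scale both were larger than the fall of any tested member. This order need not hold for folds at day 12, where ADAMTS8 was 15.8-fold lower with F-53B. LRP1, an endocytic receptor that clears MMP and ADAMTS proteins, rose by 0.86 with F-53B at day 12 (adjusted p = 0.000391), and LRP2, its relative on epithelia, by 3.50 (adjusted p = 1.14e-07).

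Among 11 tested matrix substrates, 4 rose and 6 fell with F-53B at day 8 and 5 rose and 4 fell at day 12, and with PFOS 2 rose and 2 fell, then 4 rose and 2 fell. The F-53B counts are 90.9% called at day 8 and 81.8% at day 12 (44.0% and 56.2% of all genes), with medians of -0.43 and -0.05. COL3A1, the chain of collagen III, was 122 and 130.2 FPKM with DMSO, 651 and 834 with F-53B and 326 and 294 with PFOS at day 12, and it rose by 2.54 (adjusted p = 4.11e-08) and 1.29 (adjusted p = 5.93e-05). COL1A1, COL1A2 and COL3A1 rose with F-53B at both days and are also fibroblast markers. Epicardial markers stood apart in the same libraries, their summed FPKM of 8 genes being 42.2 to 45.5 with DMSO, 585 to 774 with F-53B and 149.9 to 158 with PFOS at day 12. Their part in the protease results was not tested. Of 5 tested genes for AP-1 transcription factors, 2 rose and 1 fell with F-53B at day 8 and 4 rose at day 12. With PFOS 1 rose at day 8 and 1 fell at day 12. The F-53B counts are 60% called at day 8 and 80% at day 12 (44.0% and 56.2% of all genes), with medians of 0.16 and 0.61. JUN was 13.6 and 10.4 FPKM with DMSO, 38.2 and 42.8 with F-53B and 31.1 and 25.3 with PFOS at day 8. It rose by 1.68 with F-53B (adjusted p = 1.34e-05) and by 1.17 with PFOS (adjusted p = 0.0014). The part of the AP-1 genes in the TFPI2 result was not tested.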

How the data were processed

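RNA from H9 cells in cardiac differentiation was sequenced on BGISEQ-500 in 12 libraries. Per the file headers, the values the authors deposited are FPKM, 1 per gene in each library. The submitters' processing notes list HISAT, Bowtie2, RSEM and GRCh38 patch 11 with neither order nor tool versions. FPKM do not keep depth, and whole reads could not be recovered, so depth and its precision are unknown. Rows without a gene ID (8 to 10 per file) were left out, as were 1002 genes without a value.

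Groups follow the labels. The 14080 of 20042 genes that reached 1 FPKM in 2 or more libraries were tested as log2(FPKM + 1) with limma 3.58.1 in R 4.3.3. There was 1 fit to 6 group means (6 residual degrees of freedom) with a mean trend and robust variances. Tests were two-sided, with Benjamini-Hochberg adjustment within each of 9 comparisons and a threshold of 0.05. The code was tried on simulated data in which few genes changed, unlike the F-53B comparisons here. Error rates in the real data were therefore not measured. Alternatives were a pseudocount of 0.1, no filter, scaling to equal FPKM totals or by median ratios, only the compared libraries, a replicate block and leaving out each library.

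Members and lists were chosen with earlier results of these data known. Named throughout were TIMP1 to TIMP4, RECK, TFPI2, MMP2, MMP14 and any other member called against DMSO with a group mean of at least 2 FPKM. Up to 4 genes per list were eligible, by smallest adjusted p. ADAMTS8, ADAMTS18, ADAMTS17, ADAMTS20, MMP17 and MMP28 were named after their values were seen. Gene locations are from GENCODE 29 on GRCh38 and promoters from RefSeq on GRCh38.p14. The GC box was chosen as a motif after the promoters were read.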

Additional observations from a re-analysis of the deposited data

Results flagged for a closer look

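The effect of F-53B against DMSO differed between day 12 and day 8 in 11 members by an interaction term of the limma fit, adjusted over 14080 genes, of which 16.4% were called. It was larger, as the day 12 effect minus the day 8 effect on the log2 scale, for MMP14 by 1.10 (adjusted p = 0.00192), ADAMTS15 by 1.08 (0.00541), MMP2 by 0.91 (0.000115) and ADAMTS10 by 0.63 (0.005). ADAMTS5 differed by 1.48, a value with no test, since only the day 12 F-53B libraries brought this gene past the filter. MMP11 differed by 0.61 (0.013), ADAMTS7 by 0.54 (0.0485) and TIMP1 by 0.43 (0.0132), each called against DMSO at day 12 only. ADAMTS3, which fell at day 8, differed by 0.83 (0.00829), and TFPI2, which fell less at day 12, by 0.97 (0.0433, and 0.0631 with a replicate block). ADAMTS19 differed by -0.76 (0.00848). The effect of PFOS differed between days for TFPI2, by 1.63 (adjusted p = 0.024), its fall being smaller at day 12. Leaving out 1 library ended the F-53B calls for ADAMTS7 (any 1 of 7 libraries, 0.058 to 0.179), TFPI2 (any 1 of 7, 0.0761 to 0.145), TIMP1 (either day 8 F-53B library or day 12 DMSO replicate 2, 0.0517 to 0.0669) and MMP11 (day 8 F-53B replicate 2, 0.0664). It ended the PFOS call for TFPI2 with any 1 of 7 libraries (0.0546 to 0.108).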

How the results depend on the processing

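Of 113 results in which a tested member was called, 71 were kept under every alternative run, 42 were lost under at least 1 and 0 changed direction. A further 20 results that were not called were called under at least 1. With a replicate block the number of members called was 17 and 22 with F-53B at days 8 and 12, 8 and 6 with PFOS, 6 and 19 between the compounds, 20 over time in DMSO, and 10 and 1 for the difference between days. Libraries with the same number did not deviate together (correlations of -0.38 to 0.19), so the numbers were not taken as pairs. With only the compared libraries fitted, 3 members were called with PFOS at day 8 in place of 10. With equal FPKM totals, 11 members were called between the compounds at day 8 in place of 6. The PFOS difference between days was called in 2 members with a pseudocount of 0.1 and in 2 with no filter, in place of 1. Leaving out 1 library gave 2 to 12 members for PFOS at day 8, 2 to 5 at day 12, 2 to 7 between the compounds at day 8, 7 to 11 for the F-53B difference between days and 0 to 1 for that of PFOS. The cause of these differences was not tested. With 2 libraries a group, leaving 1 out assumes that the lone library varies like the other groups. Without read counts, the depth behind values near 0 FPKM is unknown.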
